A study of Bos taurus with 18 samples.

Results

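Clone N is 1 of 17 populations of bovine mesenchymal stem cells (MSCs) that were each grown from a single marrow cell, and it is described here against the 16 other clones (A to M and O to Q). It was selected on the number of genes called in this same comparison of the same counts, so the values that set it apart are given as a description, with log2 differences and standard errors but no p-values. An 18th library holds a heterogeneous population of many unsorted cells. It stayed out of the fit and is given beside the clones. All cells came from tibial and femoral marrow of juvenile cows, were kept on tissue culture plastic in DMEM with FBS and antibiotics, received no treatment and were taken for poly(A) RNA at passage 1. Each clone was sequenced once, so clone N has no replicate and stands for 1 founder cell and its progeny. Whether the clones came from 1 animal or from several was not given in the sources used here.

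MSCs are stromal cells of the marrow that adhere to plastic and can be driven towards cartilage, bone or fat. Cartilage cells are known for SOX transcription factors that switch on aggrecan and type II collagen, bone cells for SP7 and type I collagen, and fat cells for PPARG and CEBPA with their lipid-handling targets. Fibroblasts of vessel sheaths and the cells that line joints share parts of these programmes and add markers of their own, such as the scavenger receptor SCARA5 and the lubricant lubricin.

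The library of clone N held 13772875 reads on genes, against 11484812 to 18458157 in the other clones. Reads outside genes made up 26.8% of its file, above the 18.8% to 24.8% of the other clones, and the part of this in the results was not tested. The label of the cells was checked against marker genes. The MSC surface genes NT5E (CD73), ENG (CD105), CD44 and THY1 (CD90) were read at 695, 204, 447 and 420 CPM, where CPM is the count of a gene per 1000000 counts on genes, scaled by TMM. Defining leukocyte and endothelial genes were low, with 1 read of PTPRC (CD45), 0.383 CPM of PECAM1 and 8 reads of CD34.

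The balance of genes called higher and lower in clone N depended on the tool. Of 11761 genes tested with edgeR, 76 (0.646%) were called higher in clone N and 10 (0.085%) lower at an adjusted p under 0.05. At an unadjusted p under 0.05 the counts were 1127 (9.58%) and 813 (6.91%). DESeq2 called 177 higher and 196 lower, and limma-voom 308 higher and 43 lower. The fitted edgeR difference was above 0 for 5621 genes and below 0 for 6140. In all 86 called genes the level in clone N lay outside the range of the 16 other clones. Being outside that range was itself common. Clone N was above every other clone in 1561 genes (13.3%) and below every other clone in 1530 (13%). A call rests on 1 library that is assumed to vary as the 16 others do among themselves, so genes that varied widely among the other clones were not called even where clone N was far above most of them. Of the 76 higher genes, 6 (SCARA5, SUCNR1, UPK1B, DIO3, CYTL1 and GALNTL4) passed the filter on low counts through clone N alone and thus had to differ.

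The number of calls depended on which other clones were compared. With 1 of the 16 left out at a time, the higher genes numbered 249 without clone Q, and 33, 36, 38, 40, 45, 47 and 49 without clones C, O, E, A, F, B and M. The lower genes numbered 68 without clone Q, 17 without clone L and 6 without clone C or clone O. Of the 76 higher genes 31 were called in all 16 such comparisons, and of the 10 lower genes 6. The higher genes called in all 16 comparisons held the marker genes SCARA5, SUCNR1, UPK1B, DIO3, CLCA2, CYTL1 and PTH2R. AJAP1, DYNC1I1, CPM, RNASE4 and HPS3 were among them as well. SCARA5, SUCNR1, UPK1B, DIO3 and CYTL1 passed the filter through clone N alone, which was never left out. Their calls are thus no sign of stability, and all the markers were chosen from these same data.

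**Figure D1:**
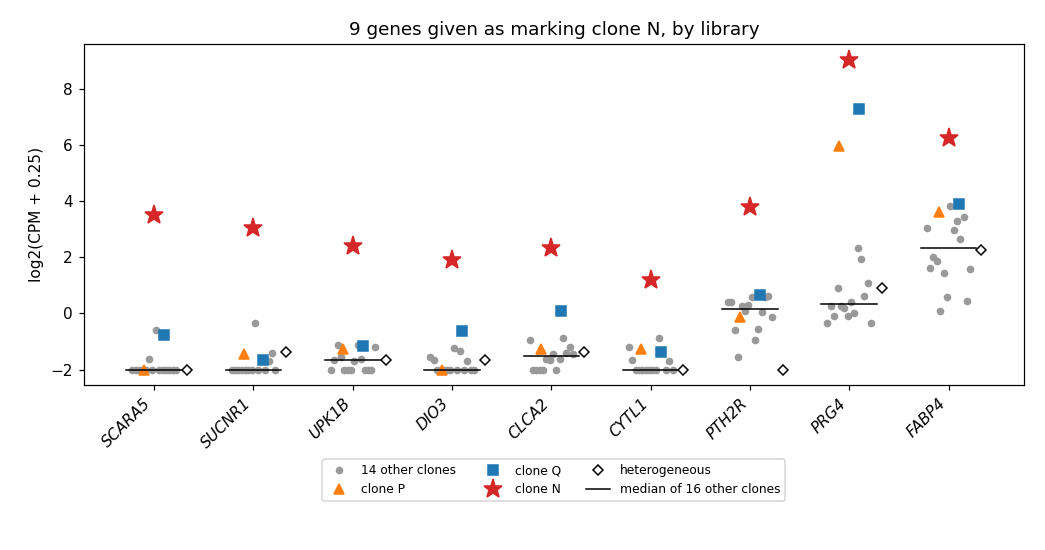
The plot of the 9 marker genes gives log2(CPM + 0.25) on the vertical axis for each library, with a star for clone N, a triangle for clone P, a square for clone Q, grey points for the 14 remaining clones, an open diamond for the heterogeneous population and a bar at the median of the 16 other clones. Clone N is the highest point for all 9 genes, and for PRG4 clones P and Q also lie far above the 14 remaining clones.

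Several of the 9 genes by which clone N had been marked were close to silent elsewhere. SCARA5, a scavenger receptor that takes up ferritin and is found on fibroblasts of the vessel sheath, had 175 reads in clone N. In the 16 other clones together it had 13 reads, and 13 of those clones had none. Its level was 11.2 CPM, against 0.413 CPM in the next clone, H, and the log2 difference from the other clones was 7.51 (SE 0.89). SUCNR1, the receptor for succinate, had 125 reads in clone N and 16 in the other clones together, with 10 clones at 0. That is 7.98 CPM against at most 0.531 CPM, again in clone H, with a log2 difference of 6.78 (SE 0.83). For both receptors clone N stood alone, and the heterogeneous population had 0 CPM of SCARA5 and 0.131 CPM of SUCNR1.

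UPK1B, a membrane tetraspanin known from urothelium and mesothelium, had 79 reads in clone N (5.04 CPM) and 19 in all other clones together, with a log2 difference of 5.87 (SE 0.73). CLCA2, a membrane protein of epithelia that modulates chloride currents and is also a p53 target, stood at 4.79 CPM against at most 0.799 CPM, in clone Q (log2 5.01, SE 0.84). Neither gene came with the rest of an epithelial set. Of 18 epithelial and keratinocyte genes 11 had no read in clone N, EPCAM, KRT5 and KRT14 among them, and their summed level was 6.70 CPM against 1.16 to 21.7 CPM in the other clones. Of 13 mesothelial genes 7 had no read, KRT8, KRT18 and WT1 among them, and the sum was 23.3 CPM against 7.35 to 91.7 CPM. MSLN stood at 15.1 CPM and UPK3B at 2.43 CPM, both within the range of the other clones.

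DIO3, the deiodinase that inactivates thyroid hormone, had 54 reads in clone N and 14 in the other clones together. It reached 3.45 CPM, while clone Q, the next, had 0.40 CPM and 10 clones had no read (log2 5.70, SE 0.89). The gene lies in the imprinted DLK1-DIO3 domain. RTL1, a neighbour in that domain, had 9 reads in clone N (0.575 CPM) and at most 0.177 CPM elsewhere, too few for the test, and DLK1 had 0 reads in clone N and in every other clone, which allows up to 0.192 CPM in clone N at the limit of 3 reads. MEG3 was not analysed here. Of 27 genes of thyroid hormone and retinoid handling 19 were tested and DIO3 alone was called. DIO3 passed the filter through clone N alone, so its call followed from that choice. The activating deiodinase DIO2 stood at 0.894 CPM and the receptor THRA at 29.4 CPM, both within the range of the other clones.

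PTH2R, a receptor of the parathyroid hormone family that responds to the peptide TIP39, had the smallest standard error of the 9 markers. It stood at 13.7 CPM in clone N and ran from 0.0890 to 1.33 CPM in the other clones, with a median of 0.878 CPM, and the log2 difference was 4.06 (SE 0.50). The classical receptor PTH1R went the other way in level, at 0.766 CPM against a median of 1.92 CPM, within the range. CYTL1, a small secreted protein of cartilage, had 32 reads, or 2.04 CPM, against at most 0.290 CPM, in clone J (log2 4.85, SE 0.90). FABP4, the fatty acid carrier of fat cells and macrophages, stood at 75.2 CPM, while the others ran from 0.799 to 14.6 CPM with a median of 4.90 CPM (log2 3.61, SE 0.79). Clone Q again came next. The call of FABP4 was lost when any one of clones A, B, C, D, F, I, J, K or O was left out, at log2 differences between 3.52 and 3.66.

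PRG4 encodes lubricin, which coats joint surfaces. It had 8292 reads in clone N, or 529 CPM, against 157 CPM in clone Q, 62.1 CPM in clone P and at most 4.79 CPM in the 14 remaining clones, whose lowest value was 0.543 CPM. Clones N, Q and P thus stood apart from the rest. The log2 difference was 5.16 (SE 1.66), and PRG4 was the 1 marker of the 9 that edgeR did not call with all 16 other clones. It was called by DESeq2 (log2 8.51) and by limma-voom (log2 8.001). DESeq2 was run at its default, which can replace outlying counts in a group of this size. Its value may thus not rest on the counts of all 16 other clones as read, which was not tested. With clone Q left out it was 6.59 (SE 1.26) and called, and with clones P and Q left out, an alternative added after the data were seen, 8.51 (SE 0.48) and called.

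**Figure D2:**
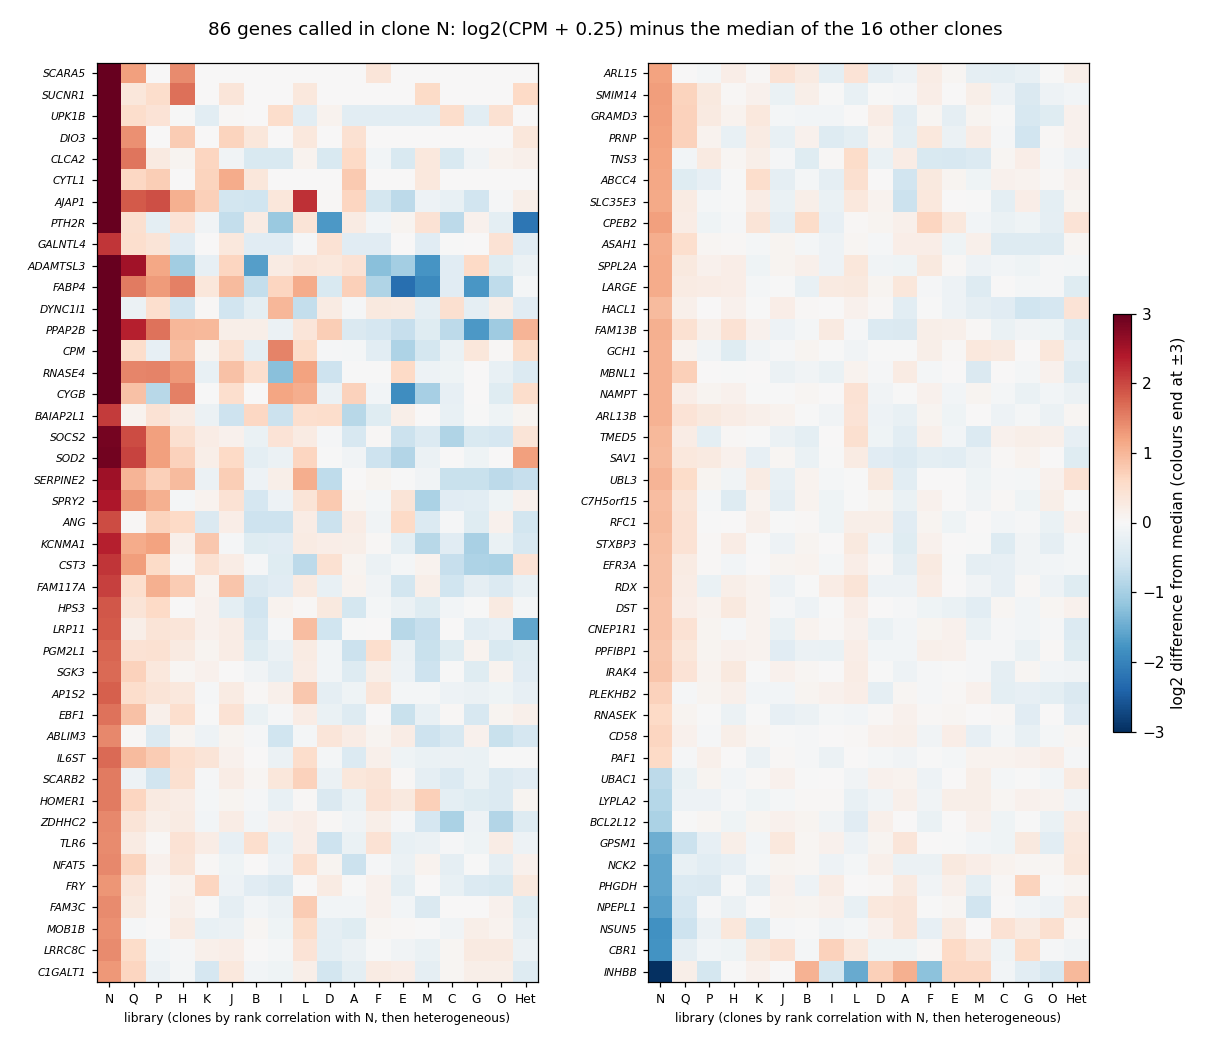
The map of the 86 called genes gives, by colour, log2(CPM + 0.25) in each library minus the median of the 16 other clones, with genes in rows from the highest to the lowest fitted difference and libraries in columns. The first column, clone N, is red for 76 genes and blue for 10, the column of clone Q is pale red for most of the 76, and colours end at 3 log2 units.

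By function, the 76 higher genes held 9 for receptors and cytokine signalling, 8 for secreted and matrix proteins, 11 for lipid, hormone and redox metabolism, 5 for channels and transporters, 14 for lysosome, vesicle traffic and glycosylation, 12 for the cell surface, adhesion and cytoskeleton, 6 for transcription and RNA, and 11 others. These roles were assigned after the calls were known and carry no test. They were not assigned to the other genes tested, so it is not known whether any role is more common here than over all genes. The medians that follow are over called genes alone and depend on what a call requires. The median log2 difference was 2.75 for the secreted proteins and 2.22 for the receptors and cytokine signalling genes, and 1.11 for transcription and RNA.

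Some of the signalling genes act as feedback brakes. SOCS2, which dampens growth hormone and cytokine signals, stood at 65.4 CPM against a median of 8.73 CPM and a highest other value of 34.8 CPM, in clone Q (log2 2.65, SE 0.59). SPRY2, an inhibitor of FGF signalling through RAS and ERK, was at 87.9 CPM against a median of 16.3 and a highest value of 40.9 CPM, again in clone Q (log2 2.22, SE 0.46). IL6ST (gp130), the shared receptor subunit for the interleukin-6 family, was at 345 CPM against 79.5 to 203 CPM (log2 1.56, SE 0.34). Smaller differences were called for the innate receptor TLR6 (log2 1.44, SE 0.30), for its downstream kinase IRAK4 (log2 0.82, SE 0.18) and for the adhesion ligand CD58 (log2 0.67, SE 0.15). All of these genes were above the range of the other clones, but the calls depended on which clones were compared. With 1 clone left out, SOCS2 was called in 2 of 16 comparisons, SPRY2 in 11, IL6ST in 6, TLR6 in 10, IRAK4 in 5 and CD58 in 1.

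Among the secreted proteins called were protease inhibitors. SERPINE2 (protease nexin-1), which blocks thrombin and urokinase, was read 49498 times in clone N, or 3161 CPM, against 315 to 1147 CPM elsewhere (log2 2.36, SE 0.49). CST3 (cystatin C), an inhibitor of cysteine cathepsins, stood at 363 CPM against 42.2 to 195 CPM (log2 2.12, SE 0.47). The gene for carboxypeptidase M, itself named CPM, was at 55.0 CPM against 2.54 to 14.8 CPM (log2 3.22, SE 0.44), and ADAMTSL3, a matrix glycoprotein related to ADAMTS proteases but without their activity, at 43.1 CPM against 0.547 to 15.3 CPM (log2 3.76, SE 0.81). The last had its next highest values in clones Q and P. RNASE4 (21.2 CPM against at most 5.06 CPM, log2 3.14, SE 0.60) and ANG, angiogenin (4.53 CPM against at most 1.69 CPM, log2 2.21, SE 0.46), are secreted ribonucleases. These 2 genes overlap in the RefSeq gene table, and since the strand setting of the counting was not given they cannot be taken as separate observations. The cytokine-like FAM3C completed the group (log2 1.40, SE 0.24). FAM3C, RNASE4 and carboxypeptidase M were called whichever clone was left out, whereas SERPINE2 was called in 10 of 16 comparisons, CST3 in 4, ADAMTSL3 in 5 and ANG in 12.

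Redox and lipid genes formed a further group. CYGB, a globin of fibroblasts that scavenges nitric oxide and reactive oxygen, stood at 93.2 CPM against 2.76 to 30.7 CPM (log2 2.84, SE 0.61). SOD2, the superoxide dismutase of mitochondria, was at 90.9 CPM against 6.39 to 49.6 CPM (log2 2.56, SE 0.58). PPAP2B, a phosphatase that breaks down lysophosphatidic acid and related lipids outside the cell, was at 35.6 CPM against 0.557 to 12.99 CPM (log2 3.39, SE 0.77). For SOD2 and PPAP2B clones Q and P again held the next highest levels, and with 1 clone left out each was called in 2 of 16 comparisons and CYGB in 7. Lower differences were called for SGK3 (log2 1.73), PGM2L1 (log2 1.88), the ceramidase ASAH1 (log2 1.12), HACL1 of peroxisomal fatty acid breakdown (log2 1.07), GCH1 of tetrahydrobiopterin synthesis (log2 1.07) and NAMPT of NAD synthesis (log2 1.04). Of these 6, all but HACL1 were called whichever clone was left out.

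Cell surface, channel and traffic genes made up the rest of the largest differences. AJAP1, a junction-associated membrane protein, was at 17.0 CPM against 0.145 to 2.89 CPM (log2 4.34, SE 0.81), and BAIAP2L1, which bends membranes at actin-rich protrusions, at 2.36 CPM against at most 0.681 CPM (log2 2.67, SE 0.55). KCNMA1, the pore of the large-conductance potassium channel opened by calcium and voltage, was read 15284 times and stood at 976 CPM against 99.7 to 454 CPM (log2 2.19, SE 0.48). DYNC1I1, a dynein intermediate chain, was at 6.77 CPM against at most 1.36 CPM (log2 3.51, SE 0.46), and GALNTL4, which starts O-linked glycans, had 18 reads against at most 3 in any other clone (log2 3.81, SE 0.86). Lysosome genes were called with smaller differences, such as SCARB2, a lysosomal membrane protein (757 CPM against 173 to 413 CPM, log2 1.54, SE 0.31), and HPS3 of lysosome-related organelle formation (log2 1.90, SE 0.27). SAV1 and MOB1B of the Hippo pathway were called at log2 1.03 (SE 0.22) and 1.39 (SE 0.20). FAM117A, of less known function, was at 21.9 CPM against at most 10.9 CPM (log2 1.99, SE 0.44). With 1 clone left out KCNMA1 and FAM117A were called in 4 of 16 comparisons, GALNTL4 in 2, SAV1 in 5, BAIAP2L1 in 10 and SCARB2 in 15.

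Called transcription factors were few. EBF1, known for B cell commitment and for early fat and stromal cells, stood at 138 CPM against 28.05 to 81.9 CPM (log2 1.61, SE 0.33), and NFAT5, which responds to osmotic stress, at 176 CPM against 41.4 to 102 CPM (log2 1.43, SE 0.27). EBF1 lost its call without clone C or clone O. It was the 1 member called of 74 tested genes for limb and skeletal transcription factors, whose median log2 difference was -0.23 beside -0.03 over all genes tested.

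The 10 lower genes were diverse. INHBB, the activin βB subunit, had 0 reads in clone N and 14 to 92 reads in the other clones. Against their median of 2.93 CPM it was at least 15.3-fold lower, taking 3 reads as the limit in clone N. INHBA, which encodes the βA subunit, was at 51.4 CPM, within the range of 28.9 to 362 CPM. PHGDH, the first enzyme of serine synthesis, stood at 146 CPM against 322 to 682 CPM (log2 -1.54, SE 0.33). CBR1, a carbonyl reductase, had 4 reads against 15 to 38 (log2 -2.68, SE 0.56), and NSUN5, which methylates ribosomal RNA, 12 reads against 31 to 79 (log2 -2.15, SE 0.46). The adaptor NCK2 (log2 -1.52, SE 0.22), the G protein regulator GPSM1 (log2 -1.44, SE 0.30) and the peptidase NPEPL1 (log2 -1.60, SE 0.30) were next. BCL2L12, LYPLA2 and UBAC1 differed by log2 -0.89, -0.82 and -0.75. In every one of the 10, clone N was below all other clones. With 1 clone left out INHBB was called in 8 of 16 comparisons, PHGDH and NSUN5 in 6, CBR1 in 14 and the other 6 in all.

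**Figure D3:**
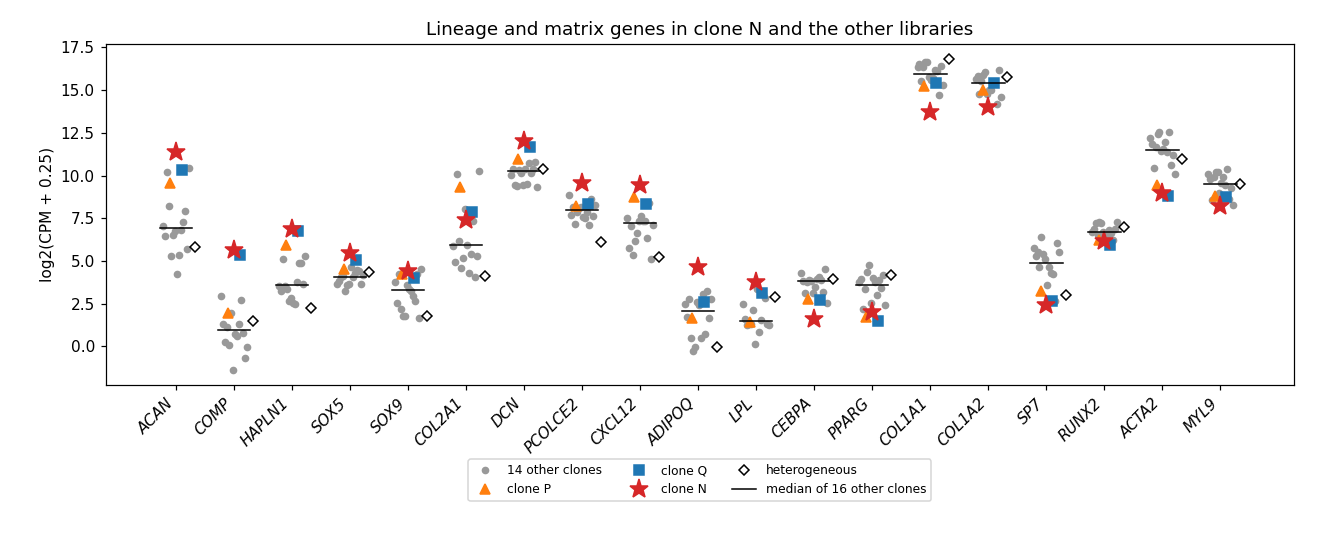
The plot of lineage and matrix genes gives log2(CPM + 0.25) per library, with the same symbols as for the markers. Clone N is above all other clones for ACAN, COMP, HAPLN1, SOX5, DCN, PCOLCE2, CXCL12, ADIPOQ and LPL, below all of them for CEBPA, COL1A1, COL1A2, SP7 and MYL9, and within their range for SOX9, COL2A1, PPARG, RUNX2 and ACTA2.

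Matrix genes of cartilage were read at high levels in clone N, yet most were not called by edgeR, and the other clones spread widely. Aggrecan (ACAN), the large proteoglycan of cartilage, stood at 2667 CPM, while the other clones ran from 18.4 to 1363 CPM with a median of 122 CPM (log2 2.87, SE 1.34). COMP, a matrix protein of cartilage and tendon, was at 49.5 CPM against 39.7 CPM in clone Q and a median of 1.72 CPM (log2 3.44, SE 1.28). HAPLN1, which links aggrecan to hyaluronan, was at 116 CPM against 107 CPM in clone Q and a median of 11.7 CPM (log2 2.28, SE 1.02). None of these genes was called by edgeR, and COMP was called by DESeq2 (log2 4.45) and limma-voom (log2 4.78). Clone N was thus highest for each of these, with clone Q close for the link protein and for COMP. As for PRG4, the DESeq2 value of COMP may not rest on all counts as read. SOX5 stood at 43.6 CPM, above the highest other value of 32.3 CPM, and SOX9, the master factor of the lineage, at 21.2 CPM, within the range of 2.86 to 22.9 CPM. COL2A1 did not follow. Its 170 CPM lay above the median of 59.7 CPM but far below the highest clone at 1221 CPM, and the fitted log2 difference was -0.51 (SE 2.09), since the fit compares with the mean of the others and not with their median.

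Of 17 cartilage genes tested, edgeR called 2 higher (CYTL1 and PTH2R) and none lower, DESeq2 2 higher (PTH2R and COMP) and limma-voom 3 higher (all of these). At an unadjusted p under 0.05, 7 were higher and 0 lower, and 7 lay above every other clone. Over all genes tested 13.3% lay above every other clone. CYTL1 passed the filter through clone N alone, so its call and its place above every other clone followed from that choice. The median log2 difference of the cartilage genes was 1.02, beside -0.03 over all genes tested. A high cartilage list was not particular to clone N. The shift of the list is the median, over its genes, of a clone's log2 level minus the mean log2 level of the 16 clones besides it. This shift was 1.01 in clone N, 1.18 in clone Q and 0.71 in clone P. For clones Q and P, the clones in that mean include clone N. COL10A1, UCMA and IHH, other cartilage genes, had 0 reads in clone N. Of 18 genes of the joint lining and the superficial zone none was called by edgeR (3 were higher at an unadjusted p under 0.05, 1 was called by DESeq2 and 3 by limma-voom) and the median was 0.35. CILP2, a matrix protein of cartilage, stood at 74.6 CPM against at most 44.7 CPM, while the hyaluronan synthases HAS1 (0.383 CPM) and HAS2 (2.43 CPM) were within the range and the lining marker CD55 had no read in any clone.

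Genes of vessel-sheath fibroblasts were mixed. Of 18 tested, edgeR called SCARA5 alone, DESeq2 called PCOLCE2 alone and limma-voom SCARA5 alone, each higher. At an unadjusted p under 0.05, 5 were higher and 1 lower, 5 lay above every other clone, and the median was 0.78. The share above every other clone was 13.3% over all genes tested. SCARA5 passed the filter through clone N alone, so its call and its place above every other clone followed from that choice. With clones P and Q left out edgeR also called PCOLCE2, COL14A1 and OSR2 higher. PCOLCE2, which speeds collagen processing, was at 745 CPM against 134 to 466 CPM, and COL14A1, a collagen on fibril surfaces, at 971 CPM against 98.5 to 918 CPM, the last value in clone Q. The defining surface markers of these cells were low, with 8 reads of CD34 (0.511 CPM against at most 0.200 CPM), 2 reads of PI16 and 0 of DPP4. CD248 and FBN1 lay below every other clone, at 38.9 CPM and 1873 CPM against lowest other values of 54.4 and 2149 CPM. Decorin (DCN), the small proteoglycan of fibrous tissue, stood at 4164 CPM against 640 to 3271 CPM, and COL12A1 at 8775 CPM against 954 to 5385 CPM. Neither was called by edgeR with all 16 other clones, though DESeq2 called COL12A1 (log2 1.75). With clones P and Q left out edgeR called both, DCN at log2 1.91 (SE 0.40) and COL12A1 at log2 1.86 (SE 0.35).

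Genes of the fat lineage lay on both sides of the other clones. SUCNR1, listed among them, passed the filter through clone N alone, so its call followed from that choice. FABP4 and SUCNR1 were the 2 that edgeR called of 19 tested, and ADIPOQ, the fat cell hormone adiponectin (24.6 CPM against 0.581 to 9.11 CPM), LPL, which releases fatty acids from lipoproteins (13.2 CPM against 0.836 to 9.86 CPM), CD36 (2.04 CPM against at most 1.32 CPM) and FABP5 (49.6 CPM against at most 47.8 CPM) lay above every other clone without a call by edgeR. Among the regulators PPARG stood at 3.83 CPM against a median of 11.9 CPM, within the range, and CEBPA at 2.75 CPM, below the lowest other value of 5.55 CPM (log2 -2.14, SE 0.70), which DESeq2 called and edgeR did not. ZNF423 at 10.1 CPM against a median of 5.02 CPM and CEBPD at 18.1 CPM against 18.1 CPM were within the range. The lipid droplet protein PLIN2 was at 119 CPM, below the 150 to 267 CPM of the others, and PLIN1 at 6.39 CPM, within the range. The hormone LEP and the droplet enzyme DGAT2 had no read in clone N, and the median of the 19 was -0.14.

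Bone genes lay towards the low end. Of 16 tested none was called by edgeR (1 higher and 2 lower at an unadjusted p under 0.05, and 1 called lower by each of DESeq2 and limma-voom), 4 lay below every other clone, 2 above (PHEX and OMD) and 13 had a log2 difference below 0, with a median of -1.31, or -0.75 with genes at 0 reads set at the limit of 3 reads. Over all genes tested, 13% lay below every other clone and 13.3% above. COL1A1 stood at 13407 CPM against 27262 to 102788 CPM, COL1A2 at 16246 CPM against 18893 to 75215 CPM, and SP7, the bone transcription factor, at 5.04 CPM against 5.996 to 84.7 CPM. ALPL had 1 read and BGLAP and IBSP none, as was also the case in some of the other clones. RUNX2 at 72.0 CPM and osteopontin (SPP1) at 1330 CPM were within the range. Contractile genes were alike in direction, with none of 17 called by edgeR (3 lower at an unadjusted p under 0.05, and 1 called lower by each of DESeq2 and limma-voom), 15 below 0 and a median of -0.997. The low contractile list was not particular to clone N. Its shift, taken as for cartilage, was -0.64 in clone N, -0.98 in clone Q and -0.39 in clone P. MYL9 was at 296 CPM, just under the lowest other clone at 305 CPM, and ACTA2, smooth muscle actin, at 508 CPM within a range of 453 to 6016 CPM. TNMD, of tendon, had no read in any clone, and SCX was not analysed here.

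**Figure D4:**
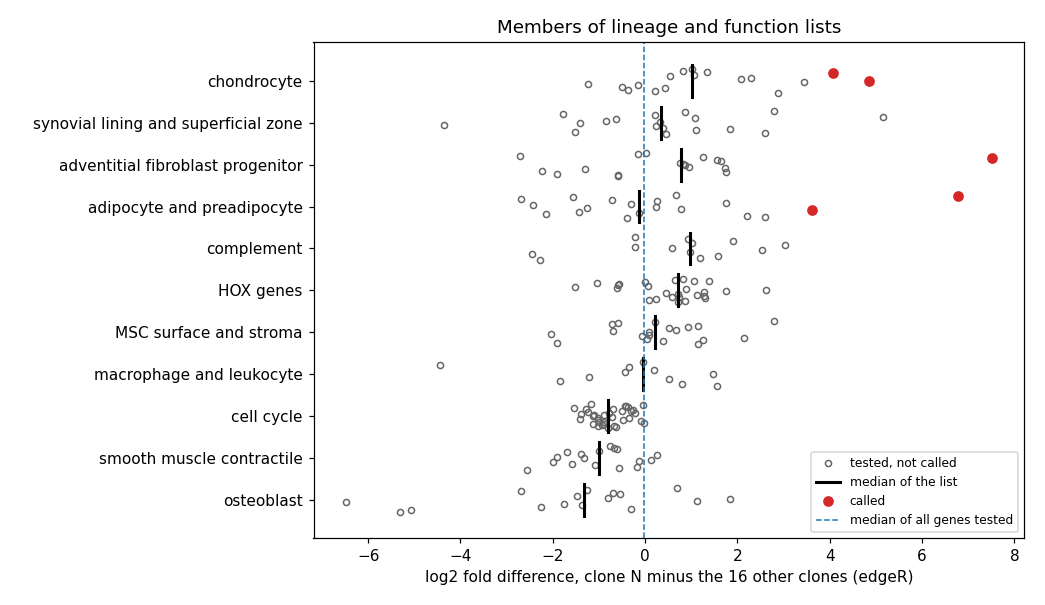
The plot of gene lists gives each tested member's log2 difference of clone N from the 16 other clones on the horizontal axis, with filled red points for called genes, a black bar for each list's median and a dashed line for the median of all genes tested at -0.03. Cartilage (1.02) and complement (0.98) have the highest medians of the lists drawn and bone (-1.31) the lowest, and called members are few in all of them.

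Other gene groups gave few calls. Of 35 cell cycle genes none was called by edgeR, DESeq2 or limma-voom, none had an unadjusted p under 0.05 and all had a log2 difference below 0, with a median of -0.80, but clone N lay within the range of the other clones for all 35. MKI67 stood at 85.8 CPM against a median of 94.4 CPM. The fit compares with the mean of the other clones and not with their median, and for these genes the other clones spread widely. The shift of the list, taken as for cartilage, was -0.29 in clone N and ran from -2.09 in clone M to 1.96 in clone O. Of 26 HOX genes none was called by edgeR (4 higher at an unadjusted p under 0.05, 0 by DESeq2 and 1 by limma-voom) and the median was 0.71. The shift of the HOX list was 0.69 in clone N, 0.64 in clone P and 0.53 in clone Q. HOXB6 was furthest from the rest at 24.5 CPM, against 14.99 CPM in clone Q and a median of 2.20 CPM. Of 30 tested peptide and metabolite receptors edgeR called PTH2R and SUCNR1, and SUCNR1 passed the filter through clone N alone. CALCRL and RAMP1 together form the receptor for calcitonin gene-related peptide. They lay above every other clone at 24.2 and 10.1 CPM, against at most 7.86 and 7.14 CPM. Neither was called by edgeR with all the other clones or by DESeq2. Both were called by limma-voom (log2 3.79 and 4.49) and by edgeR without clones P and Q (log2 3.39 and 4.73). Of 13 complement genes none was called by edgeR (2 higher at an unadjusted p under 0.05, 0 by DESeq2 and 2 by limma-voom), and the median was 0.98. Clusterin (CLU) stood at 894 CPM, within a range that reached 1279 CPM in clone P.

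SUCNR1, FABP4 and TLR6 are also expressed by macrophages, so the macrophage and leukocyte genes are given beside them. Of 22 such genes 7 had no read in clone N, C1QA, ITGAM and MSR1 among them, CD163 and PTPRC had 1 read each, and none of the 11 tested was called by edgeR, DESeq2 or limma-voom (1 was higher at an unadjusted p under 0.05). Their summed level was 96.99 CPM, above the 16.8 to 81.1 CPM of the other clones and below the 326 CPM of the heterogeneous population. Most of the sum in clone N was cathepsin S (CTSS), which stromal cells also make, at 83.8 CPM against 11.8 to 68.5 CPM. In bulk libraries, fewer cells of a type and less RNA per cell cannot be told apart.

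**Figure D5:**
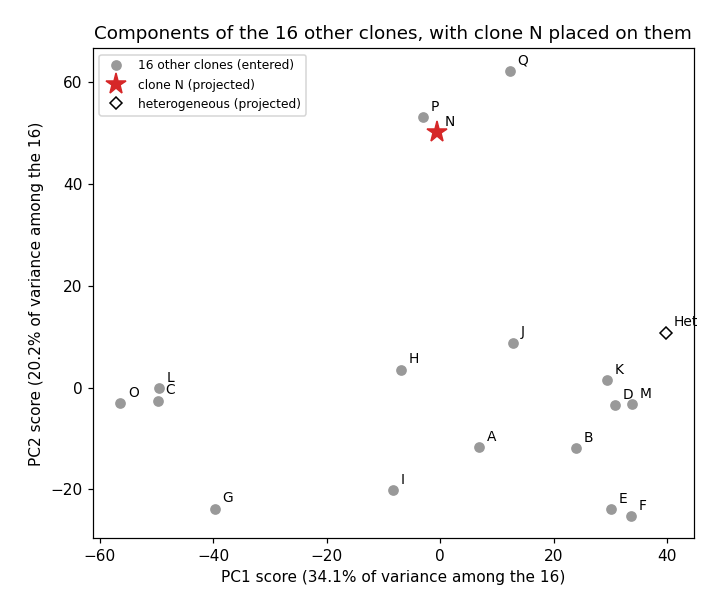
The plot of principal components was built on the 16 other clones and clone N and the heterogeneous population were placed on it afterwards. The axes are the scores on PC1 (34.1% of the variance) and PC2 (20.2%), and clone N falls beside clones P and Q at high PC2, apart from the 14 remaining clones.

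Clones Q and P were the nearest to clone N. Over 11450 genes, which are not independent replicates, the Spearman correlation of clone N was 0.975 with clone Q, 0.963 with clone P and 0.953 with clone H, down to 0.921 with clone O. The mean over the 16 clones was 0.939, below the lowest such mean of any other clone with its fellows, 0.948. A principal component analysis of the 16 other clones, in which clone N took no part, placed clones Q and P at 62.3 and 53.1 on the second component, with all the remaining clones between -25.3 and 8.83. Clone N, placed on that axis afterwards, scored 50.2 and the heterogeneous population 10.8.

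Among the called genes clone Q was often the next clone. It held the highest level of the 16 others in 33 of the 76 genes called higher, while over all genes tested it was the highest of the 16 in 10.7%. Clone L was highest in 13 of the 76 (10.4% over all genes) and clone P in 5 (8.24%). With levels scaled to the library total instead of by TMM the order of the first 2 turned, with 29 genes for clone L and 26 for clone Q. On the TMM scale clone N was more than 2 times as high as the highest other clone in 27 of the genes called higher. It was more than 4 times as high in 12 of them, and in most of them it was at most 2 times as high. They were chosen for a high level in clone N, and the same shares over all genes tested were not taken.

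Leaving out clones P and Q, an alternative added after the data were seen, raised the calls to 379 higher (3.23%) and 198 lower (1.69%) of 11716 genes, with all 86 genes named above among them. Taking out the 2 clones nearest to clone N also narrows the spread of the rest, so more calls follow from the choice itself. The genes gained are given with the levels in clones P and Q, which share the 14 remaining clones as their background. A gene can be gained because clones P and Q lay on the side of clone N. Likeness of clones N, P and Q among the genes gained is thus partly built in by the choice. For 5 of 16 cartilage genes clone N was now called higher, the 3 gained being SOX5, COMP and HAPLN1 (log2 1.43, 4.50 and 2.87). COMP reached 39.7 CPM in clone Q and 3.60 CPM in clone P, against at most 7.42 CPM in the 14 remaining clones. BMPER, a modulator of BMP signals, stood at 36.8 CPM in clone N, 9.33 CPM in clone Q, 6.69 CPM in clone P and at most 1.18 CPM elsewhere (log2 6.70, SE 0.74). FST, follistatin, which binds activins, was at 237 CPM in clone N but at 31.6 and 29.7 CPM in clones Q and P, among the 14 remaining clones at 15.5 to 107 CPM (log2 2.19, SE 0.60). Clones P and Q were thus above the remaining clones for BMPER but not for FST.

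Of 13 complement genes, 5 were called higher once clones P and Q were left out. C1R stood at 36.8 CPM in clone N, 134 CPM in clone Q and 78.7 CPM in clone P, against at most 10.8 CPM elsewhere (log2 3.32, SE 0.91). C1S, the partner protease of C1R, was at 192, 478 and 258 CPM in the same order against at most 48.7 CPM (log2 3.10, SE 0.83). CFB was at 12.5, 12.4 and 3.77 CPM against at most 3.01 CPM (log2 4.34, SE 1.0), and C4A at 32.0, 22.3 and 28.9 CPM against at most 5.61 CPM (log2 3.52, SE 0.37). For the classical pathway proteases clone N was thus the lowest of these 3 clones. Clusterin, which restrains the terminal complex, was called as well (log2 3.09, SE 0.71). C4 genes can have near-identical copies, so the level of C4A is uncertain.

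For several developmental regulators clones N, P and Q also lay on the same side of the rest. All of those given here were gained by leaving out clones P and Q, so this likeness is partly built in by the choice. MEOX2, a homeobox gene of the somite and limb, stood at 59.4 CPM in clone N, 38.2 CPM in clone Q and 22.8 CPM in clone P, against at most 18.9 CPM in the 14 remaining clones (log2 3.16, SE 0.71). EYA2, a transcriptional coactivator, was at 2.75, 2.73 and 3.71 CPM in the same order against at least 33.5 CPM (log2 -4.54, SE 0.61), and thus lay below the rest in all 3 clones. PITX1, of the hindlimb, was at 91.2, 77.1 and 82.2 CPM against at most 44.9 CPM (log2 1.48, SE 0.29). In all, 8 of 74 limb and skeletal factors were called higher and 1 lower. NKD2, an inhibitor of Wnt signals, had 0 reads in clone N and stood at 0.200 and 0.225 CPM in clones Q and P, against at least 1.16 CPM elsewhere.

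Interferon-stimulated genes split. IFIT3, DDX58, OAS1X and OAS1Y were called higher without clones P and Q, and the antigen-processing genes TAP1 (log2 -3.15, SE 0.82) and PSMB9 (log2 -3.62, SE 1.0) lower, of 19 tested. IFIT3 stood at 7.79 CPM in clone N, 11.2 CPM in clone Q and 6.13 CPM in clone P, against at most 3.48 CPM elsewhere. DDX58, OAS1X and OAS1Y were highest in clone N, at 19.3, 1.34 and 4.79 CPM. Clone P came next for each, at 12.3, 0.506 and 3.04 CPM. The highest of the clones other than N, P and Q were at 12.2, 0.145 and 1.23 CPM. For DDX58 clone P was thus level with the highest of them. TAP1 stood at 0.575 CPM in clone N, 0.933 CPM in clone Q and 1.74 CPM in clone P, against at least 2.22 CPM elsewhere. OAS1X and OAS1Y are close copies between which reads may be divided, and OAS1X had 21 reads in clone N. CXCL12, the chemokine of the marrow stroma, was at 705 CPM in clone N, 324 CPM in clone Q and 428 CPM in clone P, against 34.9 to 341 CPM (log2 2.40, SE 0.67), and CEBPA was called lower (log2 -2.28, SE 0.63).

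The heterogeneous population, whose counts entered no fit, lay below clone N in all 76 genes called higher. Clone N lay above every other clone in each of these 76 genes. A level within the range of the other clones is thus below clone N by the choice of genes. Among these genes the heterogeneous population was above all 16 other clones in 1, below all of them in 6 and within their range in the rest. Over all 11761 genes tested it was lower than clone N in 5804. It exceeded each of the 16 other clones for 1088 of the genes tested and fell under each for 1080. PRG4 stood there at 1.64 CPM, PTH2R at 0 CPM, FABP4 at 4.60 CPM and ACAN at 56.0 CPM. INHBB was at 6.04 CPM, near the top of the other clones.

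In the RefSeq gene table, which is of another assembly than the counts and was used only for the order of genes, 84 of the 86 called genes could be placed. Neighbouring called genes formed 2 pairs, SUCNR1 with MBNL1 and RNASE4 with ANG, and no other called genes were next to each other.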

How the data were processed

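Poly(A) RNA of 17 clones and 1 heterogeneous population was prepared with the NEBNext Ultra kit and read as single ends of 50 bases. The authors used STAR 2.3.0e to align to bosTau7 and HTSeq to count on the RefSeq annotation (release 103). The deposited values are raw counts per gene that were not normalized, and the strand setting was not given in the sources used here. A deposited table of the whole series held the same counts (0 of 305892 cells differed). The 5 tally lines per file that name no gene stayed out of all tests. Totals ran from 11484812 to 18458157 reads on genes per clone, at which 3 reads, taken as the limit of a count of 0, correspond to 0.192 CPM in clone N and 0.169 to 0.271 CPM in the other clones. These limits cover counting error only.

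Clone N was compared with the 16 other clones in edgeR 4.0.16 (R 4.3.3; TMM, filterByExpr, glmQLFit and glmQLFTest, Benjamini-Hochberg adjusted p under 0.05 over all genes tested), with the heterogeneous library left out. The spread is that between clones, which the labels give as separate clones. CPM are scaled by TMM, and log2 levels carry a pseudocount of 0.25. Correlations and components used genes above 1 CPM. Alternatives were DESeq2 1.42.0, voom of limma 3.58.1, other scalings and filters, the heterogeneous library added, and each clone left out. Leaving out clones P and Q was added after the data were seen. The steps were also run on simulated counts, with large changes set only in genes averaging above 1 CPM in the other clones. Clone N was drawn there with the same spread as the others. That run thus does not cover the near-silent genes or smaller differences, and it cannot test the assumption on the spread of clone N. Python 3.11.15, numpy 2.4.6, pandas 2.3.3 and matplotlib 3.10.9 did the rest.

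The members, the 9 markers and the 33 gene lists were chosen with earlier results of these data known. Named genes are the markers, the 25 called genes with the largest log2 difference and the 10 lower ones outside the range of the other clones, called list members, a fixed set of lineage genes, and called genes needed for a role. Others were chosen after their values were seen. Gene lengths were not used, so levels are not compared between genes. Sequences, coordinates and the matrix deposition of the clones were not analysed here.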

Additional observations from a re-analysis of the deposited data

How the results depend on the processing

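Each clone was sequenced once, so no replicate error of clone N exists and its spread is taken from the other clones, and genes of a few reads (CYTL1, GALNTL4, CBR1) are limited by depth. No paired analysis was possible because clone N is a single library and the labels number no replicates across groups.

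The genes called higher numbered 177 with DESeq2, 308 with limma-voom and 379 without clones P and Q, and those called lower 196, 43 and 198, against 76 and 10. The share of higher genes among the calls was 88.4%, and 47.5%, 87.7% and 65.7% under these settings. Of the 76 and 10, DESeq2 also called 68 and 10 and limma-voom 72 and 7. With 1 clone left out the counts ran from 33 (without clone C) to 249 (without clone Q) and from 6 to 68 (the same clones). Among the 9 markers the log2 difference of PRG4 was called with DESeq2 (8.51), limma-voom (8.001) and without clones P and Q (8.51), and ran from 5.05 to 6.59 with 1 clone left out. That of FABP4 ran from 3.50 to 3.75. Of the 7 remaining markers DESeq2 gave an adjusted p for PTH2R only, and 5 (SCARA5, SUCNR1, UPK1B, DIO3 and CYTL1) passed the filter through clone N alone, so their calls are no sign of stability. COL2A1 changed direction with limma-voom (0.94), and PTPRC, with 1 read, with limma-voom (0.71) and with the library total as scale (0.063). The library total moved the median of all genes from -0.03 to 0.12 and the numbers of genes above and below all other clones to 2411 and 748. The fit of edgeR compares with the mean of the counts and limma-voom with the mean of their logs. DESeq2 at its default can replace outlying counts in the larger group, and the part of this in its values for PRG4 and COMP was not tested.

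List medians kept within the spread between clones in 263 of 288 comparisons under other settings and in 510 of 512 with 1 clone left out. With limma-voom the median moved to 0.92 for tendon, 0.71 for mesothelium, 0.69 for epithelium, 0.59 for macrophages, 1.44 for Schwann cells, -0.84 for skeletal muscle, -0.025 for thyroid hormone handling, 0.47 for peptide receptors, 0.74 for cytokines, -0.082 for collagens, -0.22 for proteases, -0.46 for Wnt genes, 0.43 for FGF and related genes, 0.058 for limb factors and 0.053 for ion channels. Epithelium moved to 0.10 with DESeq2. Without a filter endothelium moved to -0.80, peptide receptors to -0.28 and FGF and related genes to -0.095. With genes above 1 CPM skeletal muscle moved to -2.003 and thyroid hormone handling to -0.082, and skeletal muscle ran from -2.13 to -1.26 with 1 clone left out. With the heterogeneous library added macrophages moved to -1.18, cytokines to -0.25 and interferon-stimulated genes to 0.18, and with the library total limb factors moved to -0.091. Beyond what the settings are built to change, the cause was not tested.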
